A study of Mus musculus with 18 samples.

Results

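Malat1 and Neat1, a pair of long noncoding RNAs that stay in the nucleus, were followed through mouse B cell differentiation. Both were taken by gene symbol from a table of 12960 detected genes, so the set holds 2 genes of 12960, and both passed the filter that kept 12782 genes for testing. They were chosen on their measured values in these 18 libraries, so their levels and differences are given as a description with no test. RNA was sequenced from spleen B lineage cells in 18 libraries, 3 in each of 6 groups made of 3 cell types and 2 genotypes. Every mouse, controls included, carried 1 allele of a Cre recombinase expressed in B cells. Controls (Ctrl) carried this Cre alone, and knockouts (KO) carried G9afl/fl with the same Cre, which allows deletion of the histone methyltransferase gene G9a (Ehmt2) in B cells. Naive B cells came from uninfected mice by CD43 bead enrichment. Activated B cells (B220+GL7+) and plasma cells (CD138+, with intermediate or low B220), both negative for Zombie yellow, F4/80, Cd11b and Thy1.2, were sorted 72 h after mice received 50 µg of lipopolysaccharide (LPS), given in 100 µl into the tail vein. Cell type, LPS and isolation therefore changed together between naive and activated cells and cannot be told apart there. Each library came from 1000 cells, and the labels do not say that replicates were separate animals, so each p-value measures only how these samples spread.

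Malat1 is a very abundant transcript of nuclear speckles, the bodies where splicing factors are stored. Neat1 is the scaffold of paraspeckles, neighbouring nuclear bodies built around its long form by RNA-binding proteins such as Sfpq and Nono. The end of Malat1 and the end of the long Neat1 form are not made by ordinary polyadenylation: RNase P cuts before a tRNA-like structure, and an A-rich tract folds with upstream U-rich stretches into a triple helix that protects the RNA end. The short form of Neat1 ends at a usual polyadenylation signal.

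Both genes lie on the minus strand of chromosome 19 and are separated by 22 kb. Malat1 (Entrez 72289) spans chr19:5795690-5802672 on GRCm38, the assembly that mm10 denotes, and its annotated transcript Malat1-201 is 6983 bases long. Neat1 (Entrez 66961) spans chr19:5824708-5845480, with a long transcript, Neat1-201, of 20771 bases and a short one, Neat1-202, of 3004 bases. The annotated ends of both Neat1 transcripts and the region of Malat1-201 where the end of the mature RNA is made are printed 5′ to 3′. They are printed because the Malat1 and Neat1-201 ends set the members apart from ordinary messenger RNAs. Capitals mark runs rich in U (as T), the A-rich tract or, in the short form, the AATAAA signal. The middle capital run of T in Malat1, TTTTGTTTT, was marked by its letters alone. Its end with the bases after it, TTGTTTTctcagg, is the reverse complement of cctgagaaaacaa just before it. That run is therefore not given as a U-rich stretch of the triple helix. The Malat1 stretch is chr19:5795970-5796071; the annotated transcript runs on past it, and its last lower-case bases are the first bases of the tRNA-like Mascrna gene, annotated in RefSeq at chr19:5795924-5795981. The Neat1-201 stretch is chr19:5824708-5824777.
Malat1-201, bases 6602 to 6703: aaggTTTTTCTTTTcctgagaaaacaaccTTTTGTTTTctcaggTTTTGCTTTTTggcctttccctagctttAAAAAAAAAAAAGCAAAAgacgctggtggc
Neat1-201, bases 20702 to 20771: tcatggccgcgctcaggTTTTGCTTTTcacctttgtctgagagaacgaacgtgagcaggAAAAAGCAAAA
Neat1-202, bases 2945 to 3004: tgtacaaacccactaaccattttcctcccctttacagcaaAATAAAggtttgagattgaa
The run AAAAAGCAAAA occurred 1 time in Malat1-201 and 1 time in Neat1-201, and it was not found in Neat1-202. Searched on the transcript strand in the last 400 bases, it was held by 143 of 122312 annotated mouse transcripts at least that long (0.117%). The RPKM values, in which reads are divided by gene length and by depth, cover each gene as a whole, so the long and short Neat1 forms could not be told apart. The complementary DNA kit, SMART-seq v4, primes on runs of A; how that priming met these ends was not tested.

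The Malat1 promoter is printed from RefSeq (GRCm38.p6), chr19:5802623-5802922 on the minus strand, from 250 bases before to 50 after the start site, because the gene's level differed between cell types and genotypes; capitals mark the single motif found.
Malat1 promoter: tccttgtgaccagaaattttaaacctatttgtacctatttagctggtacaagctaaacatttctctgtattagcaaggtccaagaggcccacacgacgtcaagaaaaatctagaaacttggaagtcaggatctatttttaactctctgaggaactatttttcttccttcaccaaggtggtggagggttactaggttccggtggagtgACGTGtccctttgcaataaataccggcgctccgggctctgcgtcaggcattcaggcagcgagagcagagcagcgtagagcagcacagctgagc
Of 11 motifs searched on both strands, it held only the hypoxia response core ACGTG, at position -43 from the start site, which 19.6% of 32851 promoters of the same length also held. There was no exact match for the TATA box (TATAAA), the CCAAT box (CCAAT), the GC box (GGGCGG), the E-box CACGTG, the cAMP response element (TGACGTCA), the AP-1 site (TGACTCA), the ETS site (CCGGAAG), the heat shock element (GAANNTTC), the NF-kB consensus or the p53 half-site. Each of these motifs was missing from most of the promoters too: the share that held one ran from 1.79% for the cAMP response element to 37.4% for the CCAAT box. The core ACGTG lies inside the E-box CACGTG, so a promoter with the second always counts for the first.

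Marker genes followed the labels. The summed plasma cell markers (6 of 6 listed) ran from 7765 to 9444 scaled RPKM in plasma cell libraries and from 256 to 839 in the others. Ehmt2 was 22.1 ± 3.12 in activated Ctrl and 22.3 ± 0.81 in activated KO (SD, n = 3), and no KO comparison called it; whole-gene RPKM does not isolate the deleted part, so this checks no label. Depth, estimated from the step that 1 read makes in low RPKM values, was 1.63 to 4.06 M reads (mega-reads) for naive, 2.68 to 10.85 M for activated and 5.15 to 6.95 M for plasma cell libraries. Naive libraries scattered more: the median SD of a gene on the log2 scale was 0.37 and 0.39 in naive Ctrl and KO against 0.13 in each other group. They also held hemoglobin RNA (2 of 6 erythroid markers were in the table), at a sum of 265 to 491 against 45.0 at most elsewhere. Platelet markers (3 of 4 in the table) summed to 40.6 to 104 there and 3.32 at most elsewhere. Neutrophil markers (2 of 4) summed to 9.31 to 28.5 and 1.95 at most. Monocyte or macrophage markers (5 of 6) overlapped, at 38.1 to 93.1 in naive libraries and up to 54.2 elsewhere. The median of 54 odorant receptor genes, which B cells are not known to use, was 1.68 to 7.0 in naive libraries and 0.97 at most in the others.

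Malat1 was far the more abundant member in every library, and both followed the same course, intermediate in naive cells, lowest in activated cells and highest in plasma cells. Levels are RPKM scaled between libraries by median-of-ratios factors. In naive Ctrl libraries 1, 2 and 3, Malat1 measured 303, 412 and 435, a mean of 383 ± 70.7 (SD, n = 3 here and for every group below). In activated Ctrl libraries 1, 3 and 4 it measured 185, 171 and 202, a mean of 186 ± 16.0. Every activated Ctrl library was thus below every naive Ctrl library. In plasma cell Ctrl libraries 1, 3 and 4 Malat1 measured 489, 578 and 527, a mean of 531 ± 44.9, all above the naive Ctrl libraries. On the log2(scaled RPKM + 1) scale the difference between activated and naive Ctrl was -1.03 (SE 0.15), and that between plasma cell and activated Ctrl was 1.51 (SE 0.15).

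Neat1 took the same course at a much lower level per length. In naive Ctrl libraries 1, 2 and 3 it measured 9.32, 14.1 and 10.9, a mean of 11.5 ± 2.46. Activated Ctrl libraries 1, 3 and 4 measured 4.44, 4.89 and 4.34, a mean of 4.56 ± 0.295, below all naive Ctrl libraries. Plasma cell Ctrl libraries 1, 3 and 4 measured 17.97, 19.3 and 19.4, a mean of 18.9 ± 0.807, and lay above both other cell types with no overlap. The log2 difference was -1.15 (SE 0.18) from naive to activated and 1.84 (SE 0.18) from activated to plasma cell Ctrl. As ratios of means, naive Ctrl stood above activated Ctrl by 2.06-fold for Malat1 and 2.52-fold for Neat1, and plasma cell Ctrl stood above activated Ctrl by 2.86-fold and 4.15-fold.

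Such separations were common among all genes in these steps, so the members' lack of overlap is not particular to them. Between activated and naive Ctrl, 61.8% of the 12782 tested genes did not overlap, and between plasma cell and activated Ctrl 56.8% did not. The same shares were 58.2% and 58.8% in KO. For plasma cell against naive Ctrl the share was not counted, so the members' separation there has no background to be read against. The difference between activated and naive Ctrl was moderate for its step: 3024 genes had a lower log2 difference than Malat1 and 2559 a lower one than Neat1, against a median gene of -0.29. That between plasma cell and activated Ctrl was further out, with 559 genes above Malat1 and 338 above Neat1 and a median gene of -0.03. Lower signal in a bulk library can come from fewer cells of a type or from less RNA per cell, and these cannot be told apart here. The hemoglobin, platelet, neutrophil and odorant receptor values above moved with the naive group. Their part in the naive levels was not tested.

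**Figure D1:**
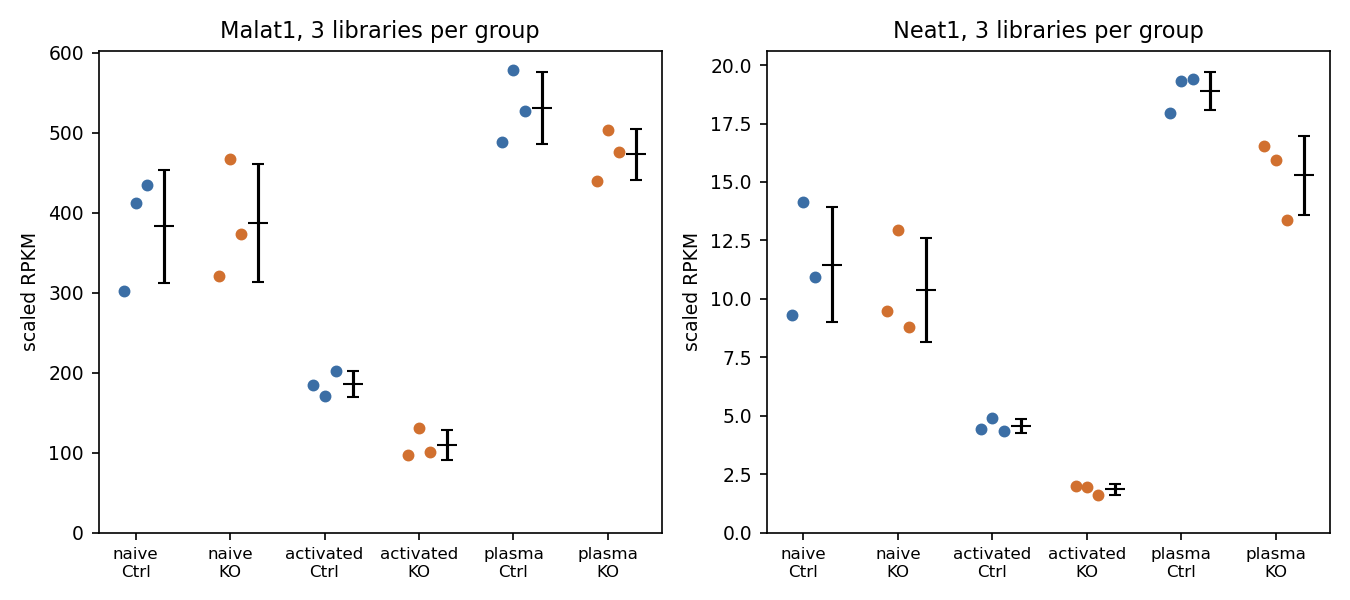
Scaled RPKM of Malat1 (left) and Neat1 (right) by group; each point is 1 library, and the black bar is the mean with SD (n = 3). Both axes start at 0; Malat1 runs from 97.2 to 578 and Neat1 from 1.60 to 19.4, and the activated KO libraries are lowest for both.

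In activated B cells the KO libraries had less of both RNAs. Malat1 measured 97.2, 131 and 101 in activated KO libraries 1, 3 and 4, a mean of 110 ± 18.7 against 186 ± 16.0 in Ctrl. Neat1 measured 2.01, 1.95 and 1.60, a mean of 1.85 ± 0.220 against 4.56 ± 0.295. For both members every KO library lay below every Ctrl library. The Ctrl mean was 1.69-fold the KO mean for Malat1 and 2.46-fold for Neat1, with log2 differences of -0.76 (SE 0.15) and -0.97 (SE 0.18). Groups that do not overlap made up 31.3% of all tested genes in this comparison. By size, 195 of 12782 genes had a lower log2 difference than Malat1 and 89 a lower one than Neat1, ranks that describe genes chosen on these values. Leaving out each of the 6 libraries in turn gave -0.90 to -0.68 for Malat1 and -1.0 to -0.90 for Neat1. The summed plasma cell markers were also lower in activated KO (334 to 432, against 747 to 839 in activated Ctrl). Jchain (126 ± 8.44 against 325 ± 47.9), Xbp1 (208 ± 35.3 against 402 ± 9.26) and Prdm1 (17.0 ± 3.82 against 31.2 ± 5.38) were lower with no overlap. Irf4 overlapped (40.9 ± 8.59 against 43.9 ± 3.34). Sdc1 (0.573 ± 0.106 against 1.09 ± 0.313) and Tnfrsf17 (0.542 ± 0.299 against 0.451 ± 0.505) were low in both. Also lower were the B cell markers Cd79a (938 ± 90.5 against 1377 ± 94.5), Cd79b (709 ± 36.6 against 1066 ± 114), Cd22 (156 ± 9.48 against 214 ± 19.1) and Pax5 (12.1 ± 4.33 against 19.3 ± 3.10), with no overlap, whereas Ms4a1 overlapped (403 ± 33.6 against 439 ± 26.7). The 5 together summed to 2134 to 2291 in activated KO and 2945 to 3366 in activated Ctrl. Erythroid markers, almost all Hbb-bs, were higher in activated KO, with a sum of 14.5 to 22.8 against 3.99 to 4.94. The part of these markers in the members' difference was not tested.

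In naive and plasma cells the genotypes lay closer together. Naive KO libraries 1, 2 and 3 measured 321, 467 and 373 for Malat1, a mean of 387 ± 74.0, and 9.48, 12.9 and 8.78 for Neat1, a mean of 10.4 ± 2.22. Both sets overlapped their naive Ctrl libraries, with log2 differences of 0.01 (SE 0.15) and -0.13 (SE 0.18); 12.2% of all genes did not overlap there. Plasma cell KO libraries 1, 3 and 4 measured 439, 503 and 476 for Malat1, a mean of 473 ± 32.3, which overlapped Ctrl. Neat1 in the same libraries measured 16.5, 15.9 and 13.4, a mean of 15.3 ± 1.69, all below the plasma cell Ctrl libraries, as 24.8% of all genes were separated there. The plasma cell log2 differences were -0.17 (SE 0.15) and -0.29 (SE 0.18), with 2515 and 1034 genes lower. Of 7 T cell markers listed, 2 were in the table: Cd3e measured 8.63 ± 1.48 in plasma cell KO and 0.0760 ± 0.0661 in plasma cell Ctrl, whereas Cd4 was near 0 in both, at 0.0554 ± 0.0155 and 0.0639 ± 0.0565. The 5 B cell markers summed to 908 to 1051 in plasma cell KO and 1271 to 1606 in plasma cell Ctrl. Only Cd79a (433 ± 32.5 against 768 ± 101) and Cd79b (453 ± 43.4 against 554 ± 69.3) were lower in KO. Ms4a1 overlapped (85.1 ± 5.76 against 83.9 ± 6.06). Cd22 (1.79 ± 1.59 against 0.860 ± 0.0496) and Pax5 (0.701 ± 0.321 against 0.330 ± 0.0866) were low in both and not lower in KO. The part of these genes in the plasma cell differences was not tested. Whether the KO difference itself differed between cell types was not tested for these genes.

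**Figure D2:**
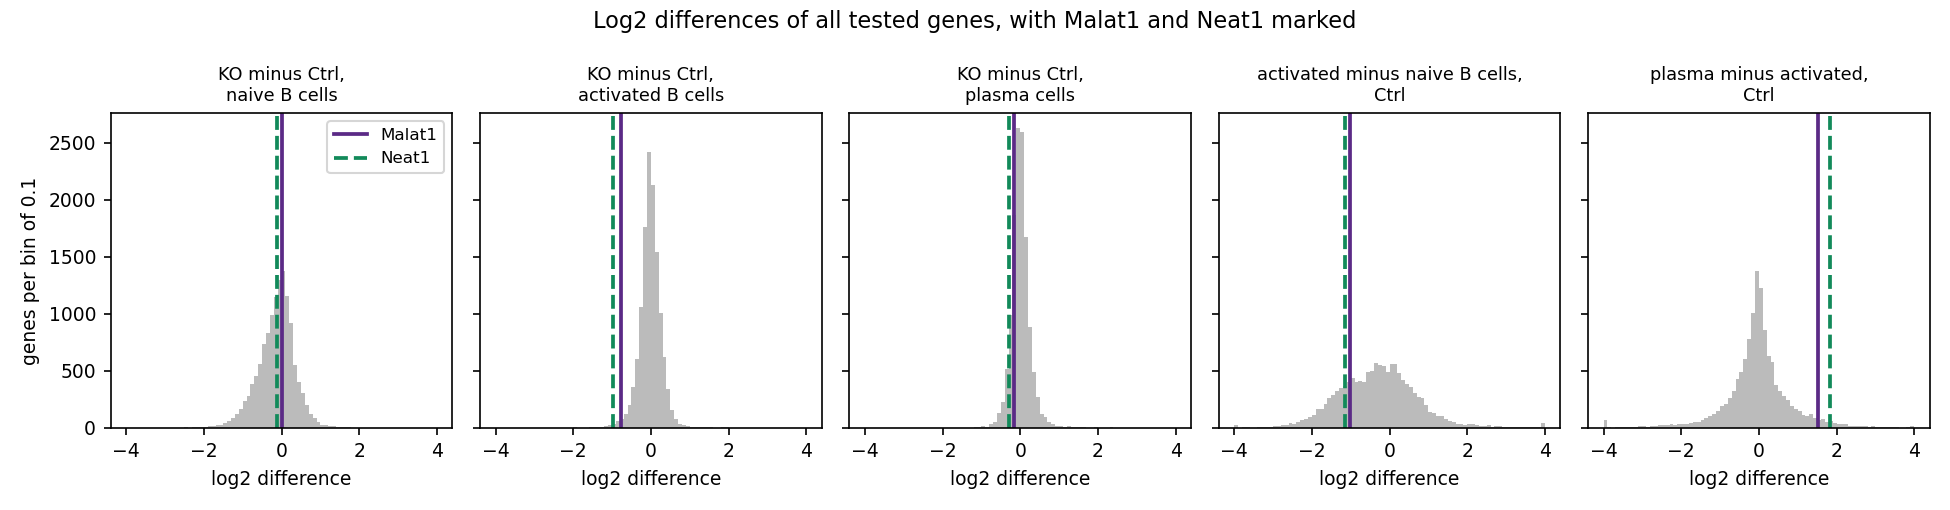
Number of tested genes by log2 difference (bins of 0.1, values beyond ±4 placed in the end bins) in 5 comparisons, with Malat1 as a solid and Neat1 as a dashed line. The lines sit near the centre in naive KO, far to the left in activated KO and far to the right in the step to plasma cells.

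Within the KO genotype the members spanned a wider range. Between activated and naive KO the log2 difference was -1.80 (SE 0.15) for Malat1 and -1.98 (SE 0.18) for Neat1, and between plasma cell and activated KO it was 2.11 (SE 0.15) and 2.51 (SE 0.18). As ratios of means, plasma cell KO stood above activated KO by 4.30-fold for Malat1 and 8.26-fold for Neat1. These steps share the activated KO libraries with the comparison of genotypes, so they are no separate evidence on it. Ordered by mean, Malat1 ran plasma cell Ctrl, plasma cell KO, naive KO, naive Ctrl, activated Ctrl and activated KO. Neighbours in that order overlapped from plasma cell Ctrl down to naive Ctrl, and did not overlap at the last pair of steps. Neat1 ran plasma cell Ctrl, plasma cell KO, naive Ctrl, naive KO, activated Ctrl and activated KO; plasma cell KO, naive Ctrl and naive KO overlapped as neighbours, and the other neighbours did not.

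The members kept different proportions to each other. The ratio of Malat1 to Neat1, both per length, was 28.1 ± 1.61 in plasma cell Ctrl and 31.3 ± 4.55 in plasma cell KO. It was 33.8 ± 5.42 in naive Ctrl, 37.5 ± 4.46 in naive KO and 41.0 ± 5.91 in activated Ctrl. Activated KO had the highest ratio, 59.7 ± 9.99 with a range of 48.5 to 67.5, above the activated Ctrl range of 34.8 to 46.6 with no overlap. Within groups the members were less tied: both deviated from their group mean in the same direction in 11 of 18 libraries. In activated KO, library 3 was highest for Malat1 and library 1 for Neat1.

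**Figure D3:**
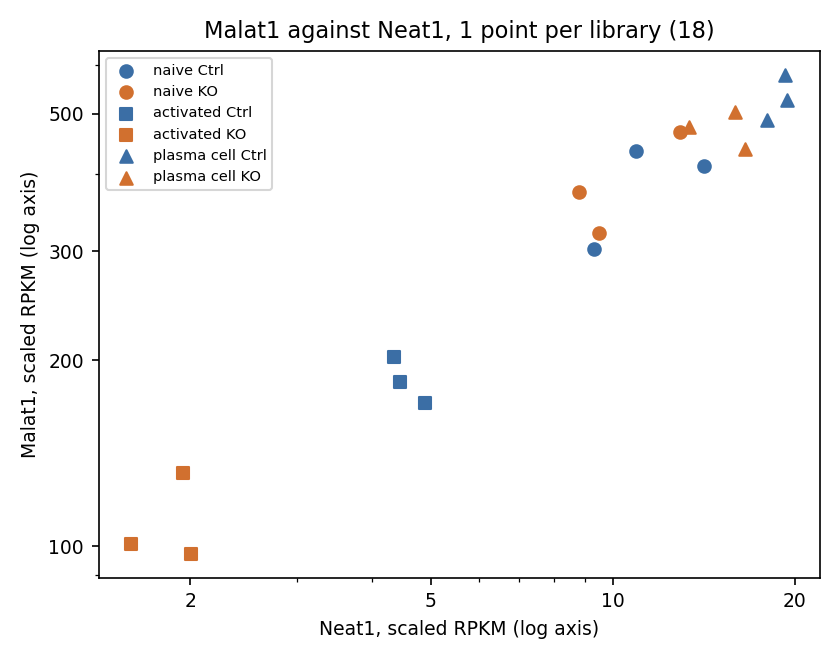
Malat1 against Neat1 in scaled RPKM, both on log axes, 1 point per library (circles naive, squares activated, triangles plasma cells; blue Ctrl, orange KO). The 3 activated KO libraries sit at the lower left and the plasma cell libraries at the upper right.

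Malat1 ranked between 81 and 818 among the 12960 genes of a library by RPKM, and Neat1 between 3747 and 9225. Among 444 genes of the RefSeq class lncRNA or of the list of named long noncoding RNAs, Malat1 was first by mean level over the 18 libraries and Neat1 was 40th. With whole annotated gene lengths, the levels correspond to about 2561 to 23510 reads per library for Malat1 and 113 to 2392 for Neat1, so counting error was small for Malat1 and largest for Neat1 in activated KO. These read numbers assume that the authors used whole gene lengths, which is not given in the sources used here. They also rest on the smallest depth that fitted the RPKM steps.

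By pattern over the 18 libraries, each member was the gene most like the other among 7036 genes that reached 10 scaled RPKM in 1 group. Numbered Gm, Rik and LOC symbols were left out of these 7036 and were not compared. Pearson's r was 0.98 on the log2 scale; the 18 points form 6 groups and share library, scaling and cell type, so r mostly restates the order of groups. The next genes for Malat1 were H2-K1 (r = 0.96), which encodes an MHC class I heavy chain, Rnf122 (0.96), Gvin1 (0.96) and B2m (0.95), the light chain of MHC class I. For Neat1 they were H2-K1 (0.97), Hbp1 (0.97), a transcriptional repressor, D17H6S56E-5 (0.96) and Trib1 (0.96). H2-K1 measured 362 ± 20.4 for activated Ctrl, 286 ± 21.6 for activated KO and 850 ± 56.4 for plasma cell Ctrl, so its range was narrower than that of either member. Rnf122 was about as low as Neat1, with 4.55 ± 0.617 in activated Ctrl and 1.81 ± 0.471 in activated KO.

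Genes near the members moved in both directions. Within 200 kb of either gene 27 others are annotated, of which 16 were in the table and 15 were tested. Called genes are those with an adjusted p from limma under 0.05. From naive to activated Ctrl, 1 of 15 rose (19% of all genes did) and 6 fell (39.4% of all genes); the median was -0.33 against -0.29 over all genes. Pola2, the DNA polymerase alpha subunit, was the one that rose, and Sipa1, Gm10814, Rela, Rnaseh2c, Map3k11 and Pcnx3 fell. From activated to plasma cell Ctrl, 3 of 15 rose and 3 fell, against 16.1% and 16.8% of all genes, while both members were higher. Those that rose included Rnaseh2c and Map3k11, and those that fell were Sipa1, Slc25a45 and Frmd8. The Frmd8 call (limma adjusted p = 0.0397) was lost without activated Ctrl replicate 1 or 3 or plasma cell Ctrl replicate 1, 3 or 4, with an adjusted p up to 0.172. Quantile normalization also ended it. On the Malat1 side, the near neighbour Fam89b had a log2 difference of -0.40 (SE 0.21) between activated KO and Ctrl. The nearest tested genes past Neat1, Frmd8 and Slc25a45, had -0.14 (SE 0.25) and -0.23 (SE 0.29). In that comparison 0 of 15 neighbours were called by limma, where 0.43% of all genes were called higher and 1.36% lower. With 15 genes this count does not set the neighbours apart from all genes. Of the 15, 0 had an unadjusted p under 0.05, and the median was -0.09. Plasma cell KO likewise called 0 of 15, against 0.446% of all genes higher and 0.172% lower, with 0 of 15 under an unadjusted p of 0.05. Naive KO called only Gm10814, which was lower (log2 difference -1.09, SE 0.26, limma adjusted p = 0.0173), against 2.1% of all genes higher and 5.14% lower.

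**Figure D4:**
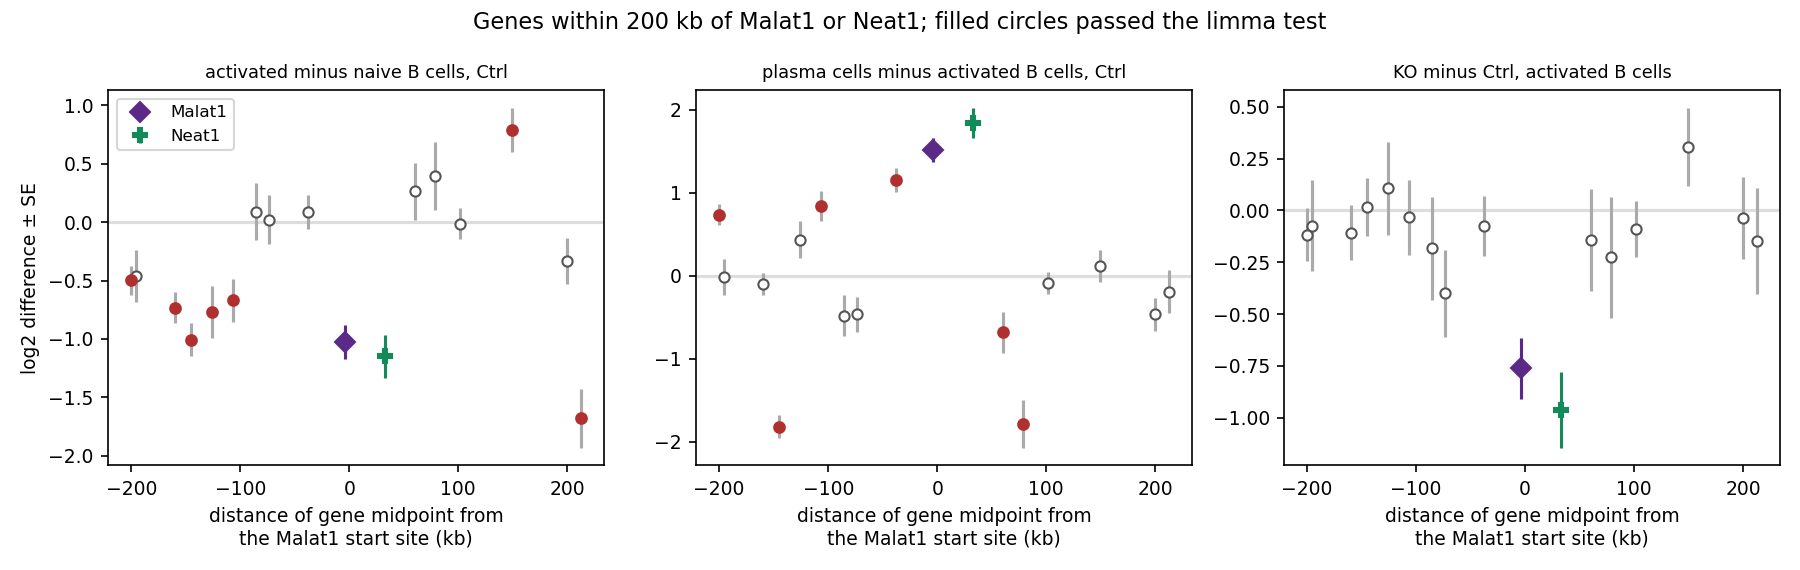
Log2 difference ± SE of the 15 tested genes within 200 kb, Malat1 and Neat1, by distance of the gene midpoint from the Malat1 start site in kb, in 3 comparisons; filled circles passed the limma test. In activated KO against Ctrl the members lie at -0.76 and -0.97 and no neighbour was called, where limma called 0.43% of all genes higher and 1.36% lower.

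Most called paraspeckle protein genes moved opposite to the course of Neat1. Of 35 tested, 18 rose and 4 fell between naive and activated Ctrl, with a median of 0.46 against -0.29 over all genes, where 19% of all genes rose and 39.4% fell. Between activated and plasma cell Ctrl 2 rose and 15 fell, with a median of -0.33 against -0.03, where 16.1% of all genes rose and 16.8% fell. Nono, an essential paraspeckle core protein, measured 73.9 ± 14.5 in naive, 131 ± 8.05 in activated and 84.9 ± 2.57 in plasma cell Ctrl, so it was highest where Neat1 was lowest (limma adjusted p = 1.5e-05 and 0.000352). Rbm14, also needed for paraspeckles, rose from 8.76 ± 1.72 to 26.2 ± 1.28 on activation (limma adjusted p = 1.4e-07), and Hnrnpk rose from 165 ± 21.4 to 259 ± 22.5 (limma adjusted p = 2.4e-05). Hnrnpk fell by 0.27 on the log2 scale to plasma cells (limma adjusted p = 0.0355), a call that was lost without activated Ctrl replicate 1 or 3 or plasma cell Ctrl replicate 1, 3 or 4 (adjusted p up to 0.14). Rbm14 had -0.15 (SE 0.14) there and was not called. Sfpq had log2 differences of 0.29 (SE 0.14) and -0.37 (SE 0.14) in these steps and was called in neither. Pspc1 was not called on activation and fell to plasma cells, from 12.9 ± 0.417 to 7.81 ± 1.39 (limma adjusted p = 0.00627). Hnrnpa1, the most clearly raised member of the list, went from 27.4 ± 4.73 to 95.4 ± 9.70, while Cirbp, a cold-inducible RNA-binding protein, fell from 107 ± 20.7 to 19.4 ± 3.13.

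Speckle protein genes, the neighbours of Malat1 in the nucleus, were mixed. Of 32 tested, 15 rose and 7 fell on activation (median 0.25, against 19% and 39.4% of all genes), and 4 rose and 10 fell to plasma cells (median -0.22, against 16.1% and 16.8%). Srsf1, a splicing factor that binds Malat1, measured 14.6 ± 0.441, 46.6 ± 3.25 and 36.4 ± 3.44 in naive, activated and plasma cell Ctrl (limma adjusted p = 6.7e-09 and 0.0296). The second Srsf1 call was lost without activated Ctrl replicate 1 or 3 or plasma cell Ctrl replicate 3 or 4, with a limma adjusted p up to 0.132. The structural speckle proteins Son and Srrm2 fell on activation, as Malat1 was lower there, Son from 25.3 ± 2.37 to 15.8 ± 2.14 and Srrm2 from 58.1 ± 4.2 to 48.2 ± 5.12 (limma adjusted p = 0.00176 and 0.0392). The Srrm2 call was lost without naive Ctrl replicate 1 or 2 or activated Ctrl replicate 1 or 3 (limma adjusted p up to 0.141). The same call was lost with RPKM as deposited, in a fit of the 2 groups alone and with library weights. Neither Son nor Srrm2 was called in the step to plasma cells, where Malat1 was higher. Their log2 differences were 0.30 (SE 0.16) and -0.04 (SE 0.11).

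Genes that cut, modify or degrade nuclear RNA were also followed in the Ctrl steps, to be read against 19% of all genes higher and 39.4% lower on activation and 16.1% and 16.8% to plasma cells. Of 13 tested genes of RNase P, RNase Z and other factors of the Malat1 end, 5 rose and 1 fell on activation and 0 rose and 2 fell to plasma cells. Mettl16, a methyltransferase that binds the Malat1 triple helix, measured 23.1 ± 0.815 in naive, 29.7 ± 2.85 in activated and 21.1 ± 2.23 in plasma cell Ctrl (limma adjusted p = 0.0482 and 0.0153). Its first call was lost without any 1 of the naive Ctrl libraries or without activated Ctrl replicate 1 or 3 (limma adjusted p up to 0.167). That call was also lost with quantile normalization, a filter at 5 RPKM, a fit of the 2 groups alone or library weights. Its second call was lost without activated Ctrl replicate 1 or plasma cell Ctrl replicate 1 or 4 (limma adjusted p up to 0.0782). Nuclear RNA decay genes rose in 10 of 20 and fell in 2 on activation, and rose in 1 and fell in 5 to plasma cells; the exosome subunit Exosc8 rose from 42.4 ± 12.6 to 91.7 ± 3.72 on activation and fell by 0.78 on the log2 scale to plasma cells (limma adjusted p = 1.1e-05 and 0.00055). Writers and readers of m6A, a methyl mark that Malat1 carries, had 3 of 12 higher and 3 lower on activation, and 0 higher and 3 lower to plasma cells; with 12 genes these counts do not set the list apart from all genes. Among 3 tested genes reported to act on Neat1 transcription, Trp53 went from 48.4 ± 6.48 to 65.5 ± 6.57 and 32.4 ± 1.97, and Hsf1 was lower on activation. On activation Trp53 (limma adjusted p = 0.00846) lost its call without activated Ctrl replicate 3 (0.052) and with quantile normalization. Hsf1 (limma adjusted p = 0.01) lost its call without naive Ctrl replicate 1 (0.0555). In KO cells the same lists, 151 tested genes in all, had 64 higher and 38 lower on activation against 21.3% and 34.4% of all genes, and 7 higher and 54 lower to plasma cells against 15.7% and 17.4%.

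Other long noncoding RNAs of the RefSeq class mostly fell on activation, where Malat1 and Neat1 were lower. They moved both ways to plasma cells, where the members were higher. Of 431 tested genes of the RefSeq class, without the members, 16 rose and 298 fell between naive and activated Ctrl, against 19% and 39.4% of all genes. The median of the class was -1.21 against -0.29 over all genes. Most of this class is expressed at low levels, and the naive libraries with their higher odorant receptor values are the reference here; the part of that background was not tested. Between activated and plasma cell Ctrl 44 rose and 34 fell, against 16.1% and 16.8% of all genes. The median was -0.01, while Malat1 and Neat1 stood at 1.51 and 1.84. Of 36 tested genes on the fixed list of named ones, 2 rose and 18 fell on activation, and 3 rose and 8 fell to plasma cells. These counts are to be read against the same shares of all genes. Zfas1 and Gas5, host genes of small nucleolar RNAs, fell to plasma cells, Zfas1 from 64.5 ± 6.33 to 12.5 ± 1.68 and Gas5 from 50.9 ± 1.44 to 25.6 ± 1.70, the opposite of the members. Ftx, of the X inactivation centre, was higher there with 1.74 ± 0.193 and 7.95 ± 0.611. Lockd rose on activation from 10.2 ± 2.63 to 58.7 ± 1.02, where the members were lower. Snhg15 fell on activation from 58.1 ± 12.3 to 29.8 ± 2.67; Snhg3 was called in neither Ctrl step, and Snhg6 fell to plasma cells (limma adjusted p = 0.0191), a call lost without activated Ctrl replicate 1 or 4 or plasma cell Ctrl replicate 1 or 4 (up to 0.111).

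**Figure D5:**
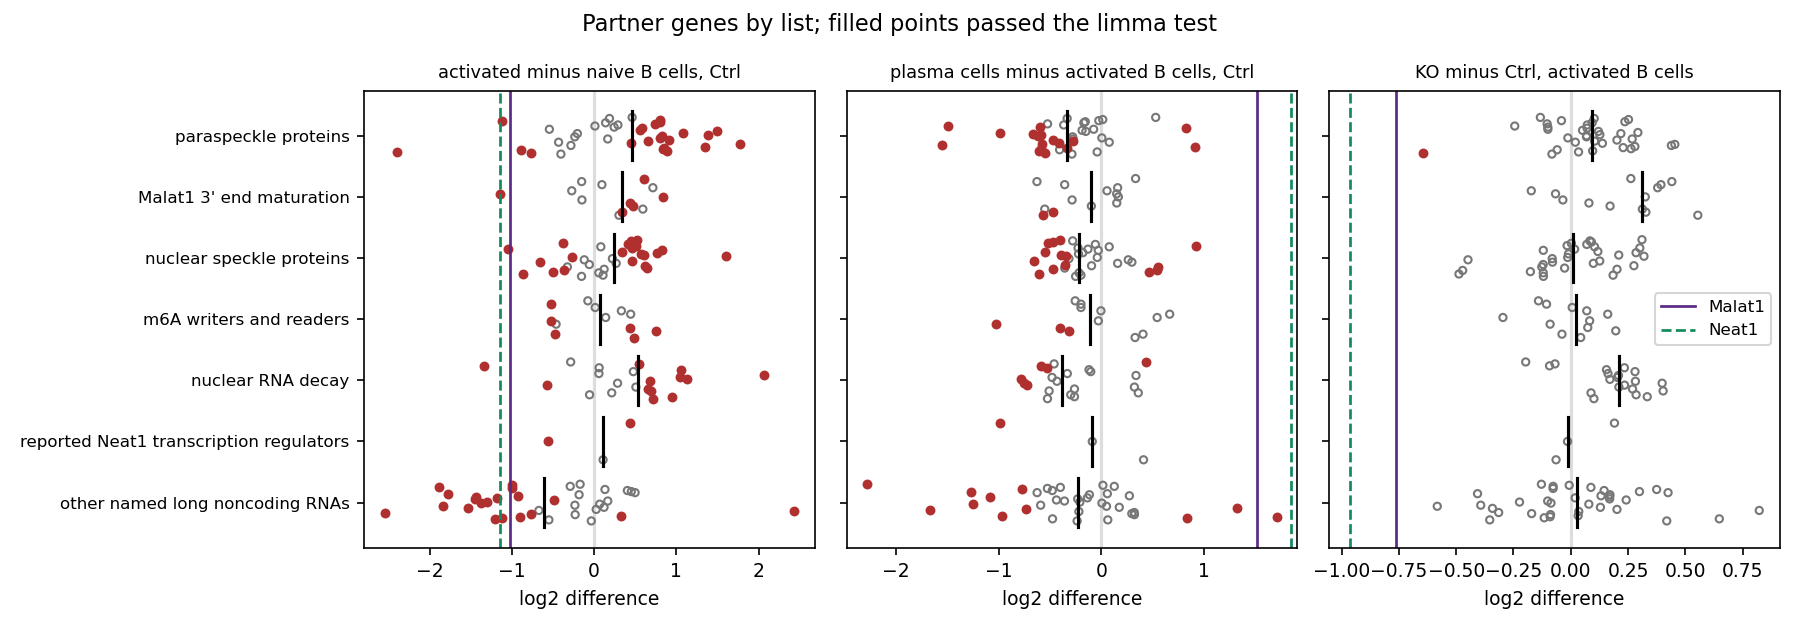
Log2 differences of the tested genes of 7 lists in 3 comparisons; each point is 1 gene (filled if called by limma), black bars are list medians, and lines mark Malat1 (solid) and Neat1 (dashed). In the step to plasma cells both lines lie to the right of every list median, and in activated KO both lie left of all list medians.

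Nearly all partner genes were uncalled between genotypes in activated cells, where Malat1 and Neat1 were lower in KO. In activated KO against Ctrl, 0 of 151 rose and 1 fell (0.43% and 1.36% of all genes did), and 14 had an unadjusted p under 0.05. The one called was Akap8l, a nuclear matrix protein gene of the paraspeckle list, at 30.0 ± 3.79 in Ctrl and 18.7 ± 1.23 in KO (limma adjusted p = 0.0109), which lost its call without activated Ctrl replicate 4 or without activated KO replicate 4. The core genes Sfpq, Nono and Rbm14 had log2 differences of 0.07 (SE 0.14), 0.07 (SE 0.12) and 0.12 (SE 0.14). Pspc1 and Hnrnpk had 0.22 (SE 0.18) and 0.10 (SE 0.10). Son, Srrm2 and Srsf1 had -0.08 (SE 0.16), -0.01 (SE 0.11) and 0.32 (SE 0.12), and Mettl16 had 0.33 (SE 0.14). A fit of the 6 activated libraries alone called more, 7 higher and 4 lower of 151, against 5.26% and 6.02% of all genes. Those higher were Elac2, Rpp30 and Mettl16 of the Malat1 end list, with Hnrnpa1, Srsf6, Exosc2 and Mir155hg, and those lower were Akap8l and the speckle kinases Clk1, Clk4 and Srpk2.

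In plasma cells KO against Ctrl called 0 of 151 partner genes by limma (0.446% of all genes rose and 0.172% fell), with 10 under 0.05 before adjustment. Fitting those 6 libraries alone called 3 higher and 4 lower, against 2.39% and 2.73%. In naive cells, where the members' groups overlapped, 5 rose and 3 fell, against 2.1% and 5.14% of all genes. Those higher were Rbm14, Pop5, Srsf1, Exosc3 and Mphosph6, and those lower were Snhg11, Lncpint and Rmst. Leaving out 1 library ended the call of Exosc3 (naive Ctrl replicate 3 or KO replicate 1), Lncpint (Ctrl 3 or KO 3), Mphosph6 (Ctrl 1 or 3), Rmst (Ctrl 1 or KO 3), Snhg11 (Ctrl 2, Ctrl 3 or KO 3) and Srsf1 (KO 3). The fit of the 6 naive libraries alone called 0 of 151, and called 0% of all genes in either direction.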

How the data were processed

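Naive, activated and plasma cell libraries of 2 genotypes were compared, 3 per group, grouped by sample title and genotype label. The authors deposited RPKM values, 1 column per library, with 0 value columns left unused here. STAR and mm10 are named per the submitters' processing notes; for versions, gene models and gene lengths, nothing is given in the sources used here. Read counts were not used here.

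RPKM values were divided by median-of-ratios factors (0.911 to 1.08, from 8012 genes above 1 RPKM everywhere) and turned into log2(scaled RPKM + 1), which understates changes of low genes. Genes with a mean of at least 1 in 1 group were kept. All 18 libraries were fitted with limma 3.58.1 in R 4.3.3 (trend, two-sided, no replicate block), with Benjamini-Hochberg adjustment over 12782 genes in each of 7 comparisons and a threshold of 0.05. The script was tested on simulated data. Sequences were read from GENCODE M21 and RefSeq with Python 3.11.15, using numpy 2.4.6, pandas 2.3.3 and matplotlib 3.10.9.

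The members and lists were chosen with earlier results of these data known. Genes named are the members, up to 4 called genes per list and comparison by smallest adjusted p, a fixed core set, the 2 nearest neighbours per side and called neighbours, the 5 genes most like each member, and the highest long noncoding RNAs. Some items that this rule names are not reported here. Genes called only in the fit of 2 groups were named after their values were seen. Depth was estimated from RPKM steps, with 50.0% to 68.0% of low values within 0.1 of a whole read, and covers counting error only. A multiple of a depth also gives whole reads, so the smallest depth near the best score was taken. In naive Ctrl library 1 a depth 2.00 times as large scored slightly higher (0.447 against 0.444). Alternatives were other scaling, pseudocount, filters, fits, weights and leaving out each library.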

Additional observations from a re-analysis of the deposited data

How the results depend on the processing

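Malat1 and Neat1 kept the direction of their differences in activated KO and plasma cell KO and in all 4 steps between cell types under every alternative run; in naive KO the sign varied around 0, from -0.15 to 0.14 for Malat1 and from -0.28 to 0.02 for Neat1 when 1 library was left out. Of 196 member values under alternatives, 187 moved by less than 1 SD and 9 by more. Those 9 were Neat1 in activated KO (-0.83 with quantile normalization, -1.26 with a pseudocount of 0.1), Malat1 from activated to plasma cell Ctrl (1.29 with RPKM as deposited, 1.21 with quantile normalization), Neat1 in that step (1.65 with RPKM as deposited, 2.03 with a pseudocount of 0.1), Neat1 from naive to activated KO (-2.41 with a pseudocount of 0.1), and Neat1 from activated to plasma cell KO (2.35 with quantile normalization, 2.98 with a pseudocount of 0.1). A smaller pseudocount widens differences of low genes by construction.

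Counts of called partner genes depended on the settings more than the members did. For naive KO the count was 8; it was 5 with a pseudocount of 0.1, 5 with a filter at 5 RPKM, 0 in the fit of the 2 groups, 0 with library weights, and 6 to 15 when 1 library was left out, with 15 without naive KO replicate 2. For activated KO it was 1; it was 2 with quantile normalization, 11 in the fit of the 2 groups, 34 with library weights, and 0 to 1 when 1 library was left out. For plasma cell KO it was 0, against 7 and 20 in the last pair of settings and 0 to 0 with 1 library left out. From activated to plasma cells it was 54 in Ctrl and 61 in KO, against 91 and 106 in the fit of the 2 groups and 105 and 111 with library weights; with RPKM as deposited it was 81 (6 higher and 75 lower) and 82 (6 and 76), against 10 and 44 and 7 and 54; the cause was not tested. Leaving out 1 library gave 38 to 45 and 47 to 54 in these steps, and 76 to 89 and 86 to 99 from naive to activated Ctrl and KO.

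Scaling shifted the share of called genes that were higher. From naive to activated it was 32.5% in Ctrl and 38.2% in KO, and 48.5% and 49.3% with quantile normalization, which moved the median gene in Ctrl from -0.29 to -0.06; a filter at 5 RPKM gave 46.8% and 48.4%. From activated to plasma cells it was 49.0% and 47.6%, and 34.1% and 36.7% with RPKM as deposited, where the median gene was -0.14 and -0.11. In naive KO it was 29.0%, and 52.4% with quantile normalization.

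Replicate numbers are shared across groups. Correlations of same-numbered deviations were -0.19 to -0.00088 in naive, -0.21 to 0.07 in activated and 0.07 to 0.31 in plasma cell pairs of genotypes. Different-numbered pairs gave -0.04 to 0.16, -0.10 to 0.26 and -0.28 to 0.09, so same-numbered pairs tended to be higher in plasma cells only. Between activated and plasma cells, same-numbered pairs gave -0.01 to 0.15 in Ctrl and -0.19 to 0.05 in KO. Different-numbered ones gave -0.26 to 0.15 and -0.23 to 0.21. The numbers were not taken to pair the samples, and the main fit treats all libraries as independent. With the replicate block 2 partner genes were called in activated KO in place of 1. Depth limits Neat1 most, at about 113 reads in the shallowest activated KO library.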
